A study of Mus musculus with 16 samples.

Results

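The genes described here are 10 genes used to mark the macrophages that live in adipose tissue, and looked up by name in the gene counts of mouse inguinal white adipose tissue (iWAT), a pad of fat under the skin. They are Adgre1, Csf1r, Mrc1, Cd163, Lyve1, Timd4, Folr2, C1qa, C1qb and C1qc, a list of symbols with no threshold on any value. They are 10 of 54752 gene IDs in the count table, and all 10 were among the 19736 genes with enough counts to be tested. RNA was sequenced from the iWAT of 16 mice of the C57BL/6 strain, each labelled as a female of 90 days, and the transgenic line was kept on C57BL/6J. There were 4 libraries of each genotype. WT mice had neither mutation, Lepob/+ mice had 1 mutant copy of the leptin gene (the ob allele), SOD1G93A mice had many copies of a mutant human SOD1 transgene that gives a motor neuron disease, and SOD1G93A-Lepob/+ mice had both. Each Lepob/+ mouse keeps a normal leptin allele. All groups shared strain, age and tissue, and none had a deletion or a treatment in common. The whole pad was extracted, with no sorting of cells, so that fewer macrophages and less of an RNA in each macrophage cannot be told apart in any value below.

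Tissue macrophages take up dead cells, debris and free haemoglobin, and those of fat lie among the adipocytes, along vessels and in the connective tissue. They depend on the receptor Csf1r, which binds the growth factors CSF1 and IL-34, and many are recognised by the adhesion receptor F4/80, the product of Adgre1. Resident cells are known for scavenger and uptake receptors (Mrc1 or CD206, Cd163, Lyve1, Folr2 and Timd4) and for making C1q, the recognition part of the classical complement pathway, which is built from the chains encoded by C1qa, C1qb and C1qc.

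By position on the mouse genome (GRCm38), the C1q genes are neighbours on chromosome 4 and share a strand. C1qb (ENSMUSG00000036905) lies at chr4:136880129-136886187, minus strand, C1qc (ENSMUSG00000036896) at chr4:136889804-136893065, minus strand, and C1qa (ENSMUSG00000036887) at chr4:136895917-136898803, minus strand, a stretch of 18.7 kb in all. The other members lie apart. Adgre1 (ENSMUSG00000004730) is at chr17:57358691-57483527, plus strand, Mrc1 (ENSMUSG00000026712) at chr2:14229392-14332057, plus strand, Cd163 (ENSMUSG00000008845) at chr6:124304656-124330527, plus strand and Timd4 (ENSMUSG00000055546) at chr11:46810800-46844332, plus strand. Lyve1 (ENSMUSG00000030787) at chr7:110850607-110863239, minus strand and Folr2 (ENSMUSG00000032725) at chr7:101839988-101857194, minus strand share a chromosome at a distance. Csf1r (ENSMUSG00000024621) lies on a chromosome of its own. Counts cover all exons of a gene. Of the members, 8 share no exon bases with another annotated gene. Csf1r shares 873 exon bases with Hmgxb3 on the opposite strand (1060 to 1941 counts per library), and Folr2 shares 975 with the antisense gene Gm10602 (64 to 161 counts), and since the strand setting of the counting is not given in the sources used here, some counts of these members could belong to the partner.

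Promoter windows, from 250 bases before to 50 bases after a start site, were available for 6 members (RefSeq, GRCm38.p6). Adgre1, Csf1r, Lyve1 and C1qa are named only. The windows of C1qb, at chr4:136886151-136886450 (minus strand), and C1qc, at chr4:136892865-136893164 (minus strand), are shown because their RNAs kept an almost fixed ratio in every library, and that of Timd4, at chr11:46810549-46810848 (plus strand), because its RNA departed most often from the rest. Capitals mark the letters GAGGAA, a core bound by the myeloid factor PU.1, and TGCTGA, a core of MAF sites, on either strand, so that a match on the other strand is seen as its reverse complement.
C1qb: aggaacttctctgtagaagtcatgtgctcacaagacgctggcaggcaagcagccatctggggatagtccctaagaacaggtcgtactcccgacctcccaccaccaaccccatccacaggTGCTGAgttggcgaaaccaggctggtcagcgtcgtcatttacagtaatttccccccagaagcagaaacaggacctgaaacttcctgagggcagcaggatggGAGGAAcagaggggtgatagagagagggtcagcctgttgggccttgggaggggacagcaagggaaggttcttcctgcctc
C1qc: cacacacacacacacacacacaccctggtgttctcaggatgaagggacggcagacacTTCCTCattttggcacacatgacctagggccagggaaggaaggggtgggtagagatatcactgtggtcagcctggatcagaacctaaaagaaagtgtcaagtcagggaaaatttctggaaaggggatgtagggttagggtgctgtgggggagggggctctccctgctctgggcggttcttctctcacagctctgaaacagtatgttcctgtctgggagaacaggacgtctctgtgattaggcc
Timd4: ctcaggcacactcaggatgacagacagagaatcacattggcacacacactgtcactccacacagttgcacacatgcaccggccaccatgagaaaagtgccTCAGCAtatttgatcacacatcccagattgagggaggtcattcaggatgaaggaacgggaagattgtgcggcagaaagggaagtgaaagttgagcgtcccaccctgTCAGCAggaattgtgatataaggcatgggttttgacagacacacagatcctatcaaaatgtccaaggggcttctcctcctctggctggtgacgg
GAGGAA stood 30 bases before the start site of C1qb and 193 bases before that of C1qc, and 3 copies stood in the window of Mrc1. It was absent from the windows of Timd4, Cd163 and Folr2. Of 32851 mouse promoter windows of this length, 28.3% held GAGGAA. The MAF letters were in the windows of C1qb (131 bases before the start), of Timd4 (150 and 44 bases before) and of both Folr2 start sites, against 19.5% of all windows. The letters CACGTG, an E-box found in 7.15% of windows, were in no member's window. No marked match overlapped another, and a match is a description of letters only.

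The libraries held 36795376 to 61886313 counts, and members had 239 (Timd4) to 38878 counts (C1qa) in a library. Levels below are CPM, the counts of a gene as a share of its library after TMM scaling, and levels of different genes are compared only as TPM, which also divides by exon length. Markers of mature adipocytes had a mean of 10.05 to 11.24 log2 CPM in every library. Some libraries stood apart. In 6 of them (WT replicates 1 and 2, Lepob/+ replicate 3, and SOD1G93A replicates 1, 2 and 4) 12 markers of high endothelial venules and lymph node stroma averaged 4.38 to 5.17 log2 CPM, against -0.63 to 0.38 in the other 10, and T cell markers averaged 5.69 to 6.68 against -0.37 to 1.20. Glycam1, a ligand made by those venules, was at 0 counts in 9 libraries. All 4 SOD1G93A-Lepob/+ libraries were among the 10, and 3 of 4 SOD1G93A libraries among the 6. Skeletal muscle markers averaged 13.07 log2 CPM in Lepob/+ replicate 4, where they summed to 229796 CPM, and 7.49 in WT replicate 3, against at most 4.11 elsewhere. The TMM factor of Lepob/+ replicate 4 was 0.664, against 0.936 to 1.115 in the others, which raises every CPM value of that library. The library labelled SOD1G93A-Lepob/+ replicate 3 had 0 counts of Xist and 1756 counts of Y chromosome genes, which goes against its label as female. The ob allele is a stop codon and the transgene is human, so the counts of Lep and Sod1 check no genotype label.

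The members differed more between mice of the same genotype than between genotypes. Across the 16 libraries the highest CPM was 4.38 (Csf1r) to 12.1 times (Lyve1) the lowest. The SD of log2 CPM within genotypes was 0.74 to 0.98, against a median of 0.42 over all genes tested. Genotype held 1.07% (Timd4) to 26.8% (Lyve1) of a member's variance on the log2 scale, and the median over all genes tested was 20.4%. With 10 genes added up, the members made 871 CPM in Lepob/+ replicate 3, 882 in WT replicate 1 and 903 in WT replicate 3, the lowest libraries, and 3568 in WT replicate 4 and 4479.9 in Lepob/+ replicate 2, the highest. Thus the extremes in both directions lay in the genotypes without the transgene. The spread also differed in size by genotype. Within WT the highest library was 3.52 to 6.87 times the lowest for a member, and within Lepob/+ 4.24 to 8.72 times. It was 1.61 to 4.00 times within SOD1G93A and 1.39 to 2.49 times within SOD1G93A-Lepob/+. Over all genes tested the median of this fold was 1.71, 2.06, 1.71 and 1.47, in the same order of genotypes. The difference in spread was not tested.

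**Figure D1:**
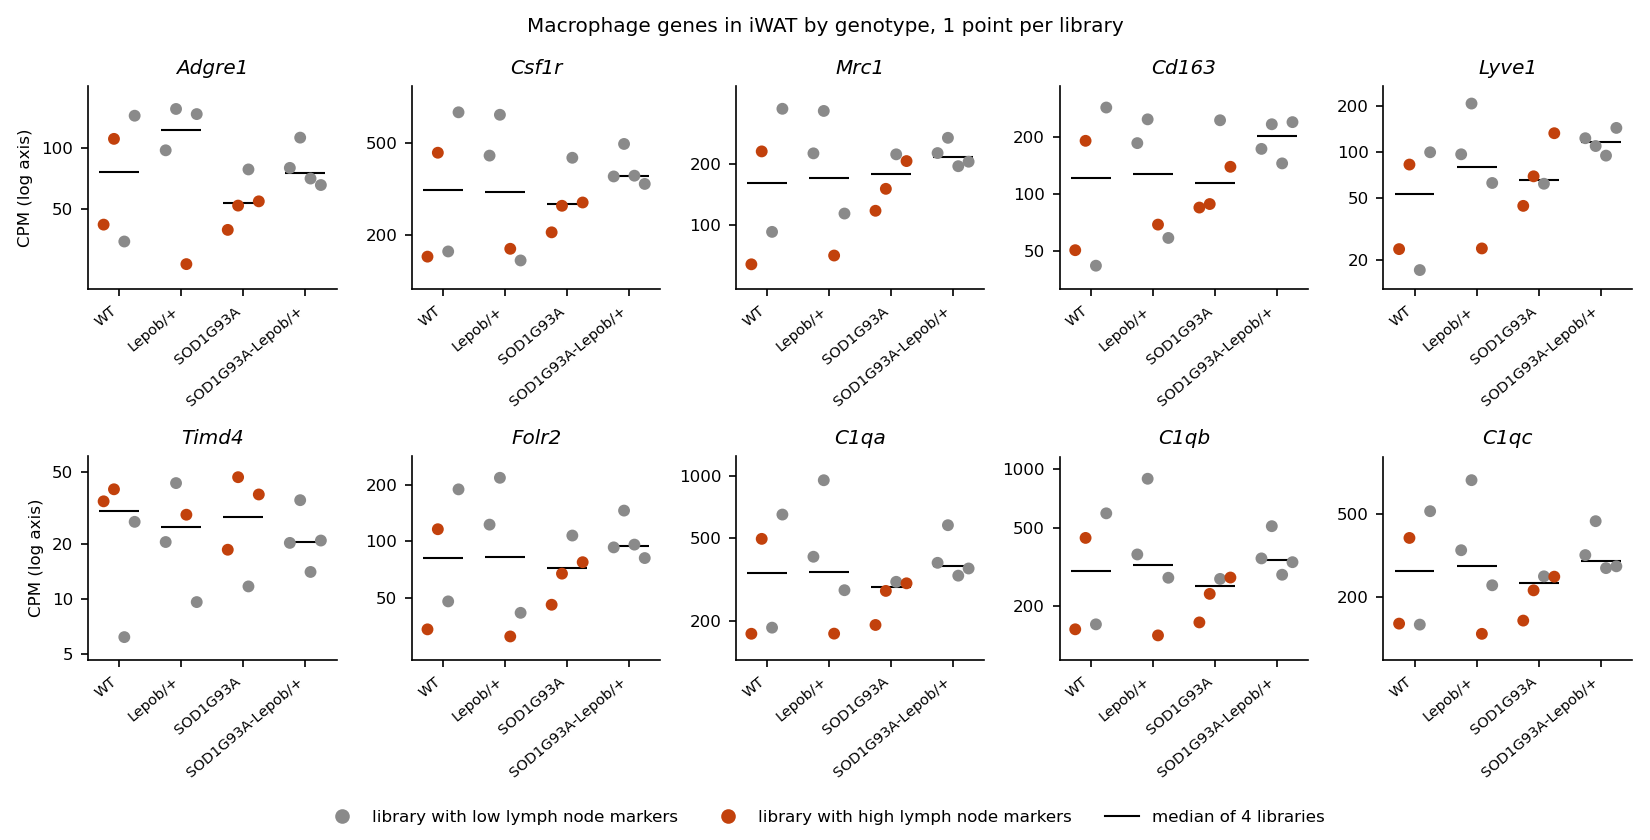
Each panel plots the CPM of a member (log axis) in the 4 libraries of each genotype, with orange points for the 6 libraries high in lymph node markers, grey points for the other 10, and a line at the median. WT and Lepob/+ points span 3.52 to 8.72 times, and SOD1G93A-Lepob/+ points 1.39 to 2.49 times.

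Per length, the complement genes were the most abundant members. C1qa was at 942 ± 539 TPM (mean ± SD, n = 16), C1qb at 811 ± 486 and C1qc at 405 ± 224. This order held in 16 of 16 libraries, and C1qc was above Folr2, the next member, in 16 of 16. The lengths, over all annotated exons, were 1040 bases for C1qa, 1088 for C1qb and 1931 for C1qc. Their median CPM were 320, 284 and 264, so the size of the step down to C1qc depends on the length used. Folr2, the folate receptor beta, at 159.6 ± 95.5 TPM, and Csf1r, at 158 ± 79.6, were not separated, since Folr2 was the higher in 7 of 16 libraries. Csf1r was above the mannose receptor Mrc1 in 16 of 16. Mrc1 (80.2 ± 40.5 TPM), Lyve1 (76.8 ± 45.4) and Cd163 (73.6 ± 39.5) changed places between libraries. Adgre1 followed at 63.9 ± 31.7 TPM, below Cd163 in 12 of 16. Timd4, at 31.7 ± 16.8, was the lowest, and it was above Adgre1 in 4 libraries, each of them high in lymph node markers.

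Most members varied together from mouse to mouse. Of the 36 pairs of members without Timd4, all 36 had a positive correlation of log2 CPM across the 16 libraries, with Pearson's r of 0.65 to 1.00 and Spearman's rho of 0.59 to 0.99. Over the 45 pairs of members, these 36 had a Benjamini-Hochberg adjusted permutation p of at most 0.00961 for r and 0.0227 for rho. Without the 2 libraries farthest from the median, r was 0.50 to 1.00. After removing the genotype means it was 0.71 to 1.00. Within the 10 libraries low in lymph node markers r was 0.45 to 1.00, and within the 6 others 0.68 to 1.00. Csf1r and Folr2 had r = 0.98 and rho = 0.97, and Csf1r and Mrc1 r = 0.95 and rho = 0.94. The libraries share a tissue and a scaling, and the correlations do not say how many cells each mouse had.

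**Figure D2:**
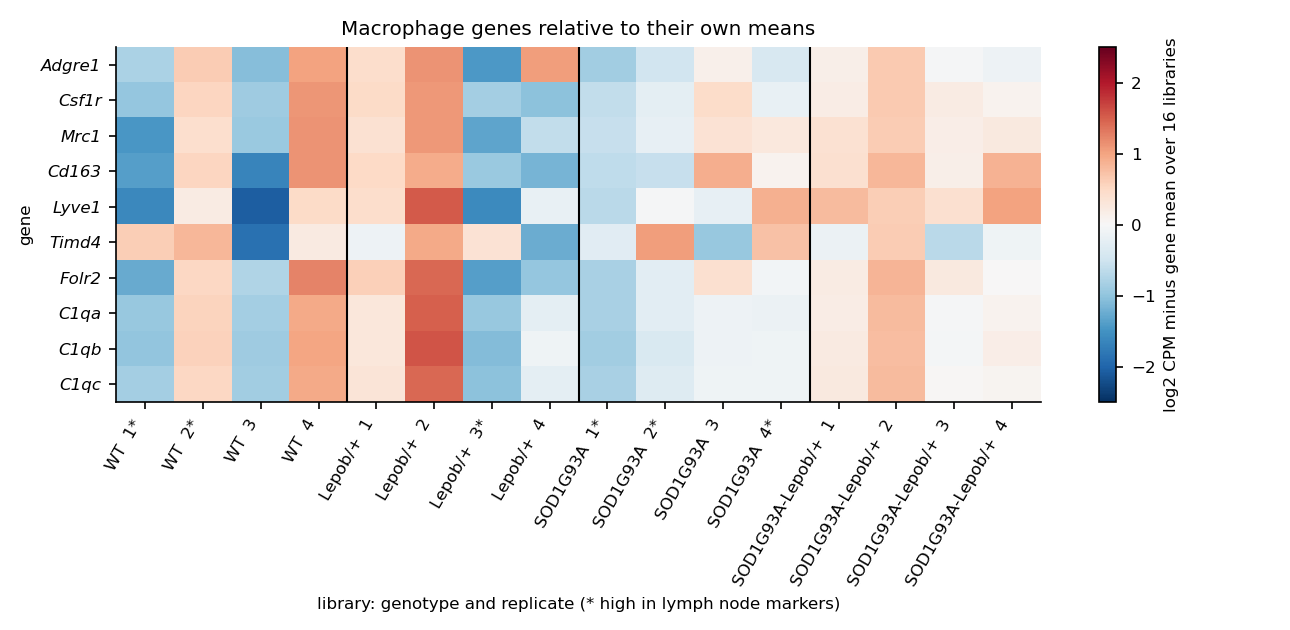
Colours give each member's log2 CPM minus its own mean over 16 libraries, with members in rows and libraries in columns grouped by genotype. Most columns have 1 colour from top to bottom. Departures include Adgre1 in Lepob/+ replicate 4 and Timd4 in columns marked with an asterisk. Timd4 also departs in SOD1G93A replicate 3, a column without an asterisk, where it is below its mean and Cd163 above its own.

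The C1q chains kept the tightest proportion. In C1qb, the values in replicate order were 152, 445, 161 and 595 CPM in WT and 367, 895, 141 and 278 in Lepob/+. In SOD1G93A they were 164, 230.3, 275 and 279, and in SOD1G93A-Lepob/+ 349.8, 511, 289 and 335. Lepob/+ replicate 2 was the highest, the WT and Lepob/+ libraries lay on both sides of all others, and every SOD1G93A-Lepob/+ library was above every SOD1G93A library. Per length, the ratio of C1qc to C1qa was 0.411 to 0.461 over 16 libraries, while C1qa itself varied 5.46-fold in CPM. The ratio of C1qb to C1qa was 0.774 to 0.945. The 3 pairs of C1q genes had r of 0.997 to 0.998. The windows of C1qb and C1qc above both hold the PU.1 core, as do 28.3% of all windows, at different distances from the start. No window was available for C1qa, and a link between the letters and these correlations was not tested.

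Csf1r, the survival receptor, was used as the reference for ratios. Its values were 161, 453, 169 and 678 CPM in WT, 440.1, 661, 174 and 155 in Lepob/+, 205, 267, 431 and 276 in SOD1G93A and 357, 494, 360.2 and 332 in SOD1G93A-Lepob/+. WT and Lepob/+ each had libraries above and below the whole SOD1G93A-Lepob/+ range. In the same order of genotypes, Mrc1 ranged over 63.3 to 379, 70.0 to 370.0, 117 to 225 and 196 to 272 CPM, Folr2 over 33.8 to 189.7, 31.0 to 219, 45.8 to 107 and 81.4 to 146 CPM, and Cd163 over 41.7 to 286, 58.4 to 248, 84.6 to 245 and 145 to 239.6 CPM. In all of these the SOD1G93A-Lepob/+ libraries lay within the range of WT. The TPM ratio of Folr2 to Csf1r was 0.666 to 1.24 and that of Mrc1 to Csf1r 0.357 to 0.683, so these stayed within a factor of 1.91. The ratio of Cd163, the receptor for haemoglobin bound to haptoglobin, ranged from 0.260 in WT replicate 3 to 0.764 in SOD1G93A-Lepob/+ replicate 4. That of C1qa to Csf1r ranged from 3.98 in SOD1G93A replicate 3 to 10.1 in Lepob/+ replicate 4.

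Adgre1 departed in a single library. Its values were 41.7, 111, 34.4 and 145 CPM in WT, 97.5, 156, 26.6 and 148 in Lepob/+, 39.3, 51.9, 78.4 and 54.4 in SOD1G93A and 79.8, 113, 70.6 and 65.6 in SOD1G93A-Lepob/+. Lepob/+ replicate 4, the library rich in muscle transcripts, had the second highest value, although its Csf1r was the lowest of all 16. Its TPM ratio to Csf1r was 1.70 in that library and 0.273 to 0.463 in the other 15. Against C1qa it was 0.168 there and 0.0490 to 0.0814 elsewhere, and neither ratio depends on the scaling of libraries. The TPM ratios of C1qa, C1qb and C1qc to Csf1r were also highest in Lepob/+ replicate 4, at 10.1, 9.56 and 4.41. Those of the remaining members were highest in other libraries. WT replicate 3, the library next in muscle transcripts, had an Adgre1 to Csf1r ratio of 0.363. Over the 16 libraries Adgre1 and Csf1r had r = 0.71, rho = 0.66 (permutation p = 0.00286 and 0.00736, adjusted 0.00368 and 0.00974) and r = 0.97 without that library. The part of the muscle transcripts in this value was not tested.

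Timd4, the receptor for phosphatidylserine on dying cells, departed from the other members in libraries high in lymph node markers. Its values were 34.5, 40.2, 6.17 and 26.6 CPM in WT, 20.6, 43.5, 29.1 and 9.63 in Lepob/+, 18.7, 46.9, 11.7 and 37.7 in SOD1G93A and 20.4, 35.1, 14.1 and 21.01 in SOD1G93A-Lepob/+. The highest were SOD1G93A replicate 2, high in lymph node markers, and Lepob/+ replicate 2, low in them and the library richest in the other members. Its TPM ratio to Csf1r was 0.236 to 0.571 in the 6 libraries high in those markers (median 0.404) and 0.0724 to 0.188 in the other 10 (median 0.138), with no overlap. For each of the 8 other members the ratio to Csf1r overlapped between those libraries. Since the libraries fall into these separate sets, Timd4 is given within each. Among the 10 libraries low in the markers its r with the 9 other members was 0.64 to 0.95, and with C1qa 0.95. Among the 6 high ones it was 0.31 to 0.57, and no test was made within the sets. Lymph node macrophages are known to make Timd4 as well, and how much of its RNA came from them was not tested.

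**Figure D3:**
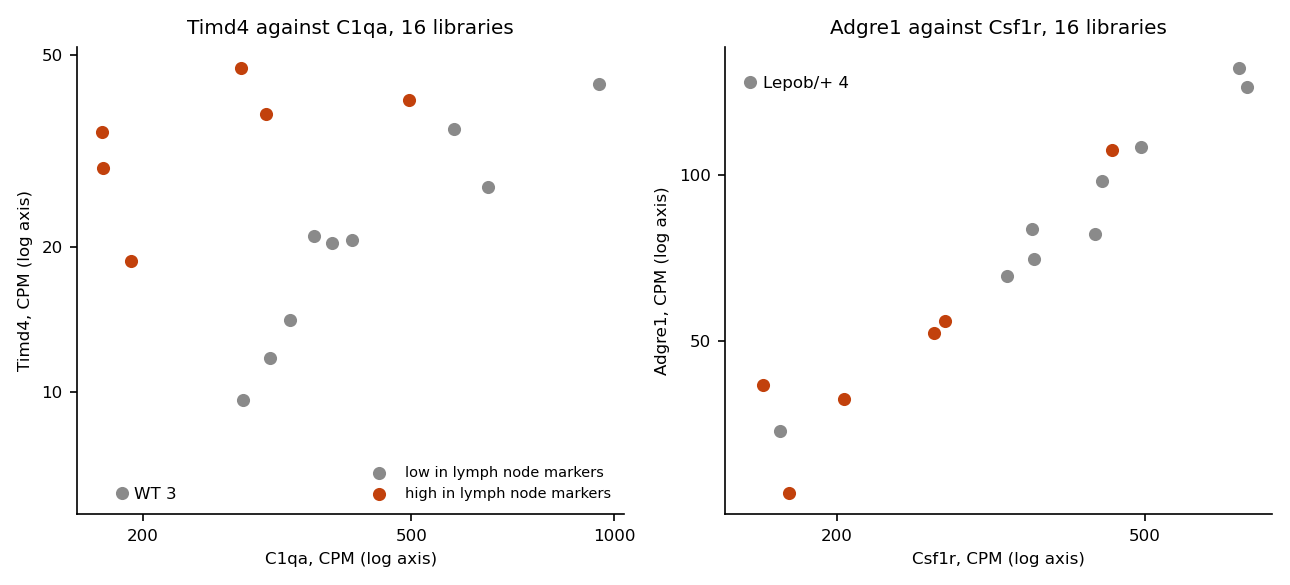
The left panel plots Timd4 against C1qa and the right panel Adgre1 against Csf1r, in CPM on log axes, 1 point per library, with the 6 libraries high in lymph node markers in orange. The grey points on the left form a rising band from WT replicate 3 upwards with most orange points above it, and on the right only Lepob/+ replicate 4 lies off the band.

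Lyve1, a receptor for hyaluronan that lymphatic vessels also make, had the widest range and the largest share of variance between genotypes. Its values were 23.4, 82.9, 17.1 and 99.6 CPM in WT, 96.7, 206, 23.7 and 62.9 in Lepob/+, 44.7, 69.5, 62.2 and 132 in SOD1G93A and 123, 109, 94.8 and 143 in SOD1G93A-Lepob/+. The lowest were WT replicates 1 and 3 and Lepob/+ replicate 3, and the 4 SOD1G93A-Lepob/+ libraries overlapped the range of every other genotype. Its TPM ratio to Mrc1 ranged from 0.406 in WT replicate 3 to 1.52 in SOD1G93A-Lepob/+ replicate 4. The 10 markers of lymphatic endothelium averaged 1.86 to 2.98 log2 CPM over all libraries. In Lepob/+ replicate 2, where Lyve1 was highest, this mean was the lowest, with Mmrn1 at 0 counts in that library alone, while the summed level of the list, 177 CPM, was near the top of its range of 92.997 to 196, and Pdpn, which fibroblasts also make, was the highest of all libraries at 61.3 CPM. How much Lyve1 came from lymphatic vessels was not tested. Prox1, the factor that defines those cells, was at 0.155 to 2.46 CPM.

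Comparisons between genotypes asked whether leptin haploinsufficiency, the SOD1 transgene or their combination changed the members. In edgeR's quasi-likelihood test, fitted on all 16 libraries, 0 of 10 members passed a Benjamini-Hochberg adjusted p under 0.05 in any of 5 comparisons, where the background was 0% of 19736 genes in each. At an unadjusted p under 0.05 the count was also 0 of 10 in each, against a background of 4.37% for Lepob/+ against WT, 2.56% for SOD1G93A against WT, 16.5% for SOD1G93A-Lepob/+ against SOD1G93A, 8.24% for SOD1G93A-Lepob/+ against Lepob/+ and 7.98% for the interaction of both mutations. DESeq2 on all libraries also called 0 members in each, and on the compared libraries 0 in the 4 comparisons of a pair of genotypes. Its background on all libraries, in the order above, was 1 of 30729, 3 of 30729, 562 of 19690, 70 of 30159 and 51 of 24878 genes. On the compared libraries it was 5 of 28721, 14 of 22351, 1771 of 22271 and 35 of 19870 genes. Comparisons that share a genotype share its libraries, so their values are not independent. Nothing states that the mice of a genotype came from separate litters, so p-values measure the spread between these samples.

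In Lepob/+ against WT, the member with the largest difference was Lyve1. Its log2 fold change was 0.80 ± 0.62 (standard error, n = 4 each, edgeR adjusted p = 1.00), with a 95% interval of -0.53 to 2.13. Csf1r had -0.03 ± 0.51 and an interval of -1.11 to 1.05, so that a change of 2-fold in either direction was within it. The 10 members ranged from -0.06 (Timd4) to 0.80, with 7 above 0 and a median of 0.17, against 0.03 over all genes tested. No member had separate libraries (0 of 10, background 0.907%). The median was -0.41 without Lepob/+ replicate 2 and 0.63 without WT replicate 4, so single mice decided its direction.

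In SOD1G93A against WT, 8 of 10 members were below 0. Adgre1 was at 56.0 ± 16.3 CPM against 83.0 ± 53.8 (mean ± SD, n = 4 each), a log2 fold change of -0.57 ± 0.51 (edgeR adjusted p = 0.998). The C1q genes had -0.51 (C1qb), -0.48 (C1qa) and -0.46 (C1qc), and Lyve1 was above 0 at 0.47 ± 0.62. The median was -0.34 against 0.02 over all genes, and 0.11 without WT replicate 4. Again no member had separate libraries (0 of 10, background 2.05%). Red blood cell markers were below 0 in 6 of 6 (median -1.04), each with an unadjusted p under 0.05 by edgeR, against 2.56% of genes. T cell markers were above 0 in 20 of 20 (median 0.92) and mature adipocyte markers below 0 in 11 of 12 (median -0.21). In both of these lists 0 markers were under 0.05. The part of tissue makeup in the members' values was not tested.

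In SOD1G93A-Lepob/+ against SOD1G93A, 9 of 10 members were above 0 and Timd4 was below. C1qb was at 371 ± 97.1 CPM against 237 ± 53.2 (mean ± SD, n = 4 each), with a log2 fold change of 0.65 ± 0.52 and an interval of -0.47 to 1.76 (edgeR adjusted p = 0.533). C1qa was at 381, 578, 331 and 358 CPM against 192, 279.5, 309 and 304, and C1qc at 319, 464, 276 and 281 against 154, 215, 252 and 251. For these 3 genes the lowest SOD1G93A-Lepob/+ library was above the highest SOD1G93A library, which makes 3 of 10 members with separate libraries against a background of 7.18% of genes. The 3 chains are neighbours that varied as 1, so they are not 3 independent cases. The other members overlapped. Adgre1 had 0.55 ± 0.51, Lyve1 0.61 ± 0.62, Cd163 0.51 ± 0.61, Folr2 0.48 ± 0.60, Csf1r 0.39 ± 0.51 and Mrc1 0.36 ± 0.54, while Timd4 had -0.34 ± 0.57. The median was 0.53 against 0.00 over all genes tested, and 0.62 without the library whose Xist and Y counts go against its label.

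The libraries of these genotypes also differed in tissue makeup. Lymph node markers were high in 3 of 4 SOD1G93A libraries and in 0 of 4 SOD1G93A-Lepob/+ libraries, where 2 of the 12 were at 0 counts throughout. Of these 12, 11 were below 0 in this comparison, as were 20 of 20 T cell markers. Summed, the 12 made 214 to 1477 CPM in SOD1G93A and 173 to 243 in SOD1G93A-Lepob/+. With the lymph node marker mean as a covariate, the median of the members was 0.04 and C1qb had 0.11. Among libraries low in those markers only SOD1G93A replicate 3 remained, with C1qa at 309 CPM against 331 to 578 in the 4 SOD1G93A-Lepob/+ libraries. Markers of fibroblasts and progenitors averaged 8.58 to 9.07 log2 CPM in SOD1G93A and 8.97 to 9.54 in SOD1G93A-Lepob/+. Markers of mature adipocytes averaged 10.05 to 11.19 and 10.89 to 11.09. Of these lists 9 of 10 and 12 of 12 markers were above 0 in this comparison, with medians of 0.54 and 0.47. Blood endothelium markers were above 0 in 8 of 8 (median 0.35), and dendritic cell markers below 0 in 9 of 10 (median -1.19). Red blood cell markers were above 0 in 6 of 6, each with an unadjusted p under 0.05 by edgeR, with a median of 1.07. Mammary epithelium markers were above 0 in 7 of 9 (5 under 0.05, median 0.70), and neutrophil and mast cell markers in 9 of 9 (2 under 0.05, median 0.45). Over all genes tested, 16.5% were under 0.05 in this comparison. The part of these tissues in the difference cannot be told apart from genotype with the libraries at hand. The fit across 4 genotypes also carries the wide spread of WT and Lepob/+. With only the compared libraries, the standard error of C1qb was 0.23 in edgeR in place of 0.52, and 3 of 10 members (the C1q genes) had an unadjusted p under 0.05 against 21.3% of genes, with an adjusted p of 0.183 for C1qb. DESeq2 on these 8 libraries gave 4 of 10 members (the C1q genes and Adgre1) against 22.7% of genes, with an adjusted p of 0.0824 for C1qb.

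In SOD1G93A-Lepob/+ against Lepob/+, members lay on both sides of 0, with 5 above and 5 below. They ranged from -0.38 ± 0.51 (Adgre1) to 0.50 ± 0.61 (Cd163), with a median of -0.04 against -0.06 over all genes. No member had separate libraries (0 of 10, background 2.35%). Without Lepob/+ replicate 4, the library with the high Adgre1, the median was -0.21, and without Lepob/+ replicate 2 it was 0.56. The interaction of both mutations had a median of 0.34 against -0.09 over all genes, with standard errors of 0.69 to 0.87, and its largest member value was 0.53 ± 0.86 in Cd163 (edgeR adjusted p = 0.816). The median was -0.10 without WT replicate 4.

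**Figure D4:**
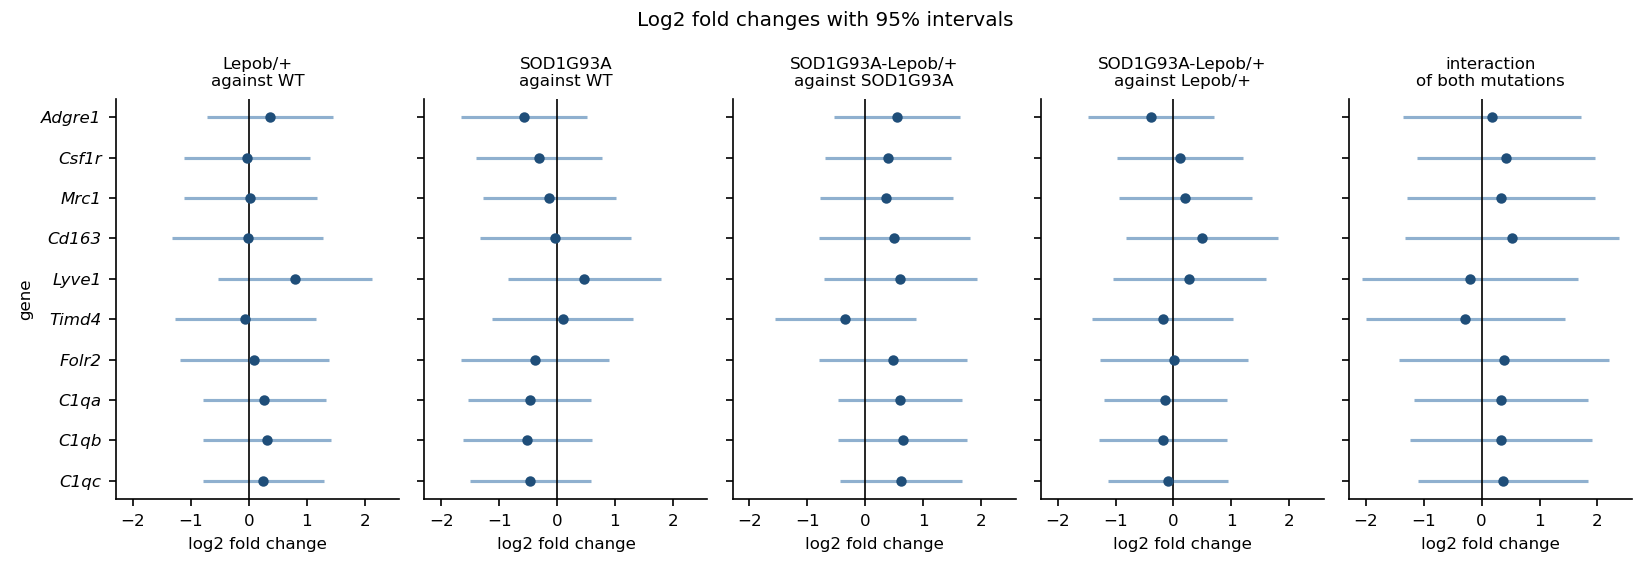
Points are log2 fold changes of the members in 5 comparisons and bars are 95% intervals from the fit on 16 libraries. Every bar crosses 0, and bars reach about 1 log2 unit or more to each side of their point.

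The growth factors that bind Csf1r were present in every library. Csf1, the main ligand, was at 47.6 to 163 CPM and Il34 at 13.8 to 36.8. In SOD1G93A-Lepob/+ against SOD1G93A their log2 fold changes were 0.57 and 0.76, with edgeR adjusted p of 0.369 and 0.261. In Lepob/+ against WT they were 0.09 and -0.01, in SOD1G93A against WT -0.10 and -0.29. In SOD1G93A-Lepob/+ against Lepob/+ they were 0.38 and 0.48, and in the interaction 0.48 and 0.77.

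Genes that place the members among other cells were also measured. The myeloid factors Spi1 (PU.1) and Maf were at 17.4 to 60.5 and 58.2 to 236 CPM. Siglec1, a marker of resident macrophages, was at 40.03 to 432 CPM, Ccr2, which marks recruited monocytes, at 8.54 to 124, and Trem2, a receptor of lipid-associated macrophages, at 2.25 to 17.9. Markers of other cells spanned 1209 to 3262 CPM for Adipoq (adipocytes), 80.5 to 200.5 for Pdgfra (progenitors) and 0.489 to 97.9 for Cd3e (T cells). Krt8 (mammary epithelium) was at 81.8 to 317 CPM, Hba-a1 (red cells) at 85.5 to 361, S100a8 (neutrophils) at 0.341 to 2.27, and Acta1 (skeletal muscle) at 2.96 to 44647.

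Beyond the members, 46 other genes of tissue macrophages, 18 of lipid-associated macrophages, 16 of monocytes and recruited macrophages, 17 myeloid growth factor and transcription factor genes, 20 of the complement pathway and 24 of dead cell and haem clearance were tested. By edgeR, 0 of these passed the adjusted threshold in any comparison. In SOD1G93A-Lepob/+ against SOD1G93A, 39 of 46 other macrophage genes were above 0 with a median of 0.48, near the members' 0.53. Fibroblast and progenitor markers and mature adipocyte markers had medians of 0.54 and 0.47 there, so a shift of this size was not limited to macrophage genes. Of the 46, 1 higher and 3 lower had an unadjusted p under 0.05 by edgeR, against a background of 16.5% of genes. The genes with the smallest p, each with its log2 fold change, were Marco, a scavenger receptor of macrophages in lymphoid tissue (-4.85), and Laptm5, a lysosomal protein of blood cells (-1.18). Complement genes gave 17 of 20 above 0, led by C2 (0.77), which C1q-bound proteases cleave, and Cd59a (0.56). Clearance genes gave 20 of 24, with Slc46a1, a haem and folate carrier (0.49), and Elmo1, an engulfment adaptor (-1.06). Of the lipid-associated genes 14 of 18 were above 0, with Mcoln3, a lysosomal channel at 0 counts in 9 libraries and so given no fold, and Cd9 (0.42) first. Monocyte genes divided into 7 above and 9 below, with the leukocyte adhesion gene Itgal (-3.17) among the first, and among transcription factors Id3 (0.57) and Irf8 (-1.94) had the smallest p. Mcoln3 was at most 0.079 CPM in the 10 libraries low in lymph node markers, against 1.96 to 4.04 in the 6 high ones.

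In the other comparisons the genes of smallest p in each list are given with their log2 fold change, and by edgeR none passed the adjusted threshold. In Lepob/+ against WT the smallest p values by list belonged to Wwp1 (0.78) and Gas6 (0.68), a bridge between dying cells and macrophages, to Fabp5 (-0.92) and Lgals3 (-0.59), to Hp (1.01) and Nos2 (-0.75), to Tfeb (0.98) and Nr1h3 (-0.34), to C5ar1 (-1.64) and Cfb (0.44), and to Itgav (-2.44) and Hpx (-0.57). In SOD1G93A against WT they belonged to Cd14 (-0.49) and Sirpa (0.94), Lgals3 (-0.59) and Apoe (-0.36), F10 (-1.59) and Il1b (1.04), Nr1h3 (-0.47) and Id3 (-0.32), Cfd (-0.40) and C2 (-0.32), and Itgav (-2.16) and the iron exporter Slc40a1 (-0.56). Itgav, an integrin chain used in uptake of dying cells, was at 3.09 to 35.2 CPM, highest in WT replicate 2. In SOD1G93A-Lepob/+ against Lepob/+ they belonged to Aif1 (-1.02) and Marco (-4.25), Mmp12 (2.20) and Mcoln3 (no fold given), Itgal (-2.31), Tfeb (-1.04) and Irf8 (-1.16), C5ar1 (2.46) and C1qbp (-0.28), and Stab2 (-1.95) and Slc46a1 (0.40). In the interaction they belonged to Aif1 (-1.11) and Trf (0.83), Lgals3 (1.06) and Mcoln3 (no fold given), Itgal (-3.18), Nr1h3 (0.83) and Id3 (0.61), C5ar1 (2.37) and C2 (0.75), and Itgav (3.62) and Slc46a1 (0.66).

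Across mice the members moved with the rest of the macrophage genes and with connective tissue genes. Their mean log2 CPM over 16 libraries went with that of the 46 other macrophage genes (r = 0.98, rho = 0.96, adjusted permutation p = 6e-05 and 0.00012 over 12 lists) and with 10 fibroblast and progenitor markers such as Col1a1 and Pdgfra (r = 0.91, rho = 0.88, adjusted permutation p = 6e-05 and 0.00024). Without the 2 libraries farthest from the median r was 0.96 and 0.88. For fibroblast markers it was 0.89 among libraries low in lymph node markers and 0.96 among those high in them. Complement genes other than C1q gave r = 0.83, rho = 0.77, adjusted permutation p = 0.00012 and 0.0019. Lipid-associated macrophage genes gave r = 0.65, rho = 0.68, adjusted permutation p = 0.014 and 0.012, and neutrophil and mast cell markers r = 0.67, rho = 0.68, adjusted permutation p = 0.011 and 0.012. With markers of mature adipocytes there was no relation past the threshold (r = 0.21, rho = 0.19, adjusted permutation p = 0.51 and 0.57), nor with those of blood endothelium (r = 0.25, rho = 0.31, adjusted permutation p = 0.45 and 0.32) or mammary epithelium (r = -0.08, rho = 0.07, adjusted permutation p = 0.85 and 0.81). Neither did lymphatic endothelium (r = 0.37, rho = 0.34, adjusted permutation p = 0.23 and 0.3), red blood cells (r = 0.05, rho = 0.14, adjusted permutation p = 0.86 and 0.67) or Csf1r ligands and myeloid factors (r = 0.47, rho = 0.53, adjusted permutation p = 0.13 and 0.063) go with the members past the threshold. Clearance genes passed it by rank only (r = 0.46, rho = 0.59, adjusted permutation p = 0.13 and 0.039). Without the 2 libraries farthest from the median, r was 0.61 for lymphatic endothelium, 0.61 for Csf1r ligands and myeloid factors and 0.45 for adipocyte markers. It was 0.44 for clearance genes, 0.14 for blood endothelium, 0.05 for red blood cells and -0.13 for mammary epithelium, all with no test. Within the libraries low and high in lymph node markers r was 0.71 and 0.88 for Csf1r ligands and myeloid factors, 0.71 and 0.68 for clearance genes, and -0.37 and 0.69 for blood endothelium, where the sign turned. For adipocyte markers it was -0.25 and -0.02, and for lymphatic endothelium 0.24 and 0.60. The 16 monocyte and recruited macrophage genes, some of which lymphocytes share, were compared only within these sets, with r of 0.87 over 10 libraries and 0.73 over 6. These values within sets carry no test. WT replicate 3 had the lowest mean of the members and the highest adipocyte markers, at 11.24 log2 CPM.

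**Figure D5:**
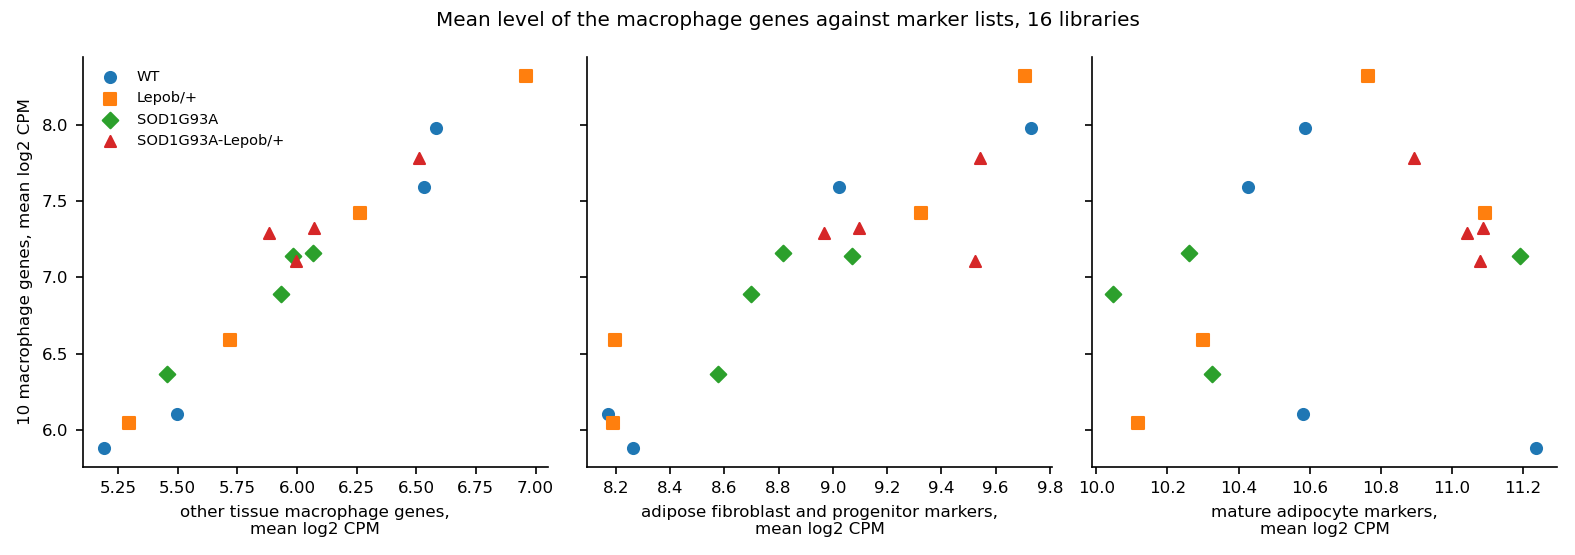
The mean log2 CPM of the 10 members is plotted against that of other macrophage genes, of fibroblast and progenitor markers and of mature adipocyte markers, 1 point per library with a symbol per genotype. Points rise along a line in the left panel (r = 0.98) and the middle panel (r = 0.91) and show no line in the right panel (r = 0.21).

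The genes most like the members included lysosomal and myeloid genes. By Pearson's r with the mean standardised level of the 10 members over 16 libraries, the closest of 19726 genes were Lgmn, a lysosomal protease (r = 0.99), Ctsc, cathepsin C (0.98), Hacd4 (0.97) and Cd68, a lysosomal glycoprotein used as a general macrophage marker (0.97). Then came Pla1a (0.97), the chemokine Ccl6 (0.97), Cfp, the complement regulator properdin (0.96), the RNA sensor Tlr8 (0.96), Tbxas1, thromboxane synthase (0.96), and Alox5ap, which serves leukotriene synthesis (0.96). Of all genes compared, 133 had r over 0.9 and 0 under -0.9. Lgmn was at 83.2 to 346 CPM and Ctsc at 111 to 409. These r are a ranking over the same libraries and are given with no test.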

How the data were processed

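RNA of iWAT from 16 mice, 4 per genotype, was read as pairs. The authors trimmed reads with fastp, aligned them to mm10 with HISAT2 2.1.0 and used featureCounts 2.0.2 to count reads with a unique position in each gene. The deposited values are raw counts of 54752 Ensembl gene IDs, not normalized, and 54723 IDs were paired with a symbol. The study describes a TruSeq stranded kit and the labels a NEBNext kit, and the strand setting and annotation release are not given in the sources used here. The 10 members and all gene lists were chosen with earlier results of these data known.

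Counts were analysed with edgeR 4.0.16 in R 4.3.3. Genes were kept by filterByExpr (min.count 10, min.total.count 15), scaled by TMM and compared by robust quasi-likelihood F tests in 1 fit of 16 libraries, with Benjamini-Hochberg adjustment within each comparison at 0.05. Standard errors were the log2 fold change over the root of F, and intervals (95%) used its t quantile. Log2 CPM used a prior count of 1. TPM used exon lengths of GENCODE M21. Correlations had two-sided tests of 100000 permutations, whose smallest p is 1e-05. The 6 libraries high in lymph node markers were set apart at the largest gap of that mean. Named genes were every member, Csf1 and Il34, the 10 genes most like the members, in each other macrophage list any gene called and the 2 of smallest p, and 1 or 2 markers of other cell types. Some genes that this rule names are not reported here. Xist and Y genes served the label check.

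Depth was 36795376 to 61886313 counts per library, and the spread between mice, not counting error, limits the values. None of the 24 pairs of libraries within a genotype agreed within sampling noise. Same-numbered libraries were correlated in residuals over 0.1 in 5 of 24 pairs and below -0.1 in 8, so numbers were not taken to pair mice. Alternatives were DESeq2 1.42.0 on all libraries or on those compared, DESeq2 size factors, other filters, edgeR on the compared libraries, a replicate block, a lymph node covariate, leaving out each library, and leaving out both Lepob/+ replicate 4 and SOD1G93A-Lepob/+ replicate 3. The procedure was also run on simulated counts, as a check of median fold change estimates only. Those counts held no difference between libraries in lymph node or muscle content, unlike the libraries here.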

Additional observations from a re-analysis of the deposited data

Results flagged for a closer look

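Within each genotype, the level of every member and 14 ratios between members were examined for a library far from the other 3, which makes 96 groups of 4 libraries. Of these, 4 groups had such a library. In independent groups without a departure the rule flags about 1 in 20. The groups here share libraries and members, so they are not independent, and that rate cannot say whether a flag is chance. The TPM ratio of Adgre1 to Csf1r was 1.70 in Lepob/+ replicate 4, against 0.273 to 0.422 in the other Lepob/+ libraries. That library also held the most muscle transcripts, and their part was not tested.

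The TPM ratio of Timd4 to Csf1r was 0.446 in Lepob/+ replicate 3, against 0.124 to 0.175 in the other Lepob/+ libraries, and that of Timd4 to C1qa was 0.0800, against 0.0164 to 0.0242. It is the only Lepob/+ library high in lymph node markers, and their part was not tested. The TPM ratio of C1qa to Csf1r was 5.33 in WT replicate 4, against 6.02 to 6.11 in the other WT libraries. All 4 genotypes together spanned 3.98 to 10.1 in this ratio.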

How the results depend on the processing

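The number of members called was 0 under each alternative run. The fits on the compared libraries were not run for the interaction, which needs all 4 genotypes. Medians moved by less than 0.76 log2 units, the SD of the members' mean between libraries within genotypes. That is a wide bar. Leaving out 1 library could change the sign of the median in every comparison except SOD1G93A-Lepob/+ against SOD1G93A. Of fold changes of single members under an alternative, 1138 kept their sign and 92 changed it, in 37 of 50 pairings of member and comparison, and none was called. Normalization, filters, DESeq2 and the fits on the compared genotypes changed no sign. With lymph node markers as a covariate, log2 fold changes that changed sign were in Lepob/+ against WT Mrc1 -0.24, Timd4 0.30 and Folr2 -0.25, in SOD1G93A against WT Mrc1 0.16, Cd163 0.12 and Timd4 -0.19, in SOD1G93A-Lepob/+ against SOD1G93A Adgre1 -0.036, Csf1r -0.16, Mrc1 -0.30, Cd163 -0.066, Timd4 0.52 and Folr2 -0.27, in SOD1G93A-Lepob/+ against Lepob/+ Csf1r -0.014, Timd4 0.025 and Folr2 -0.10, in the interaction Adgre1 -0.081, Mrc1 -0.063, Timd4 0.22 and Folr2 -0.023. With the replicate number as a block they were in Lepob/+ against WT Cd163 0.17 and Timd4 0.10, in SOD1G93A against WT Mrc1 0.085 and Cd163 0.25, in SOD1G93A-Lepob/+ against Lepob/+ C1qa 0.0092 and C1qc 0.049, and the members' median in SOD1G93A-Lepob/+ against SOD1G93A was 0.45 under the block, which changed no call. Without Lepob/+ replicate 4 and SOD1G93A-Lepob/+ replicate 3 together they were in Lepob/+ against WT Csf1r 0.20, Cd163 0.22 and Timd4 0.19, in SOD1G93A-Lepob/+ against Lepob/+ Csf1r -0.097 and Folr2 -0.21.

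Leaving out each library in turn, the members' median ranged from -0.41 to 0.63 in Lepob/+ against WT, -0.62 to 0.11 in SOD1G93A against WT, 0.38 to 0.69 in SOD1G93A-Lepob/+ against SOD1G93A, -0.25 to 0.56 in SOD1G93A-Lepob/+ against Lepob/+ and -0.10 to 0.93 in the interaction. WT replicate 4 (14 signs) and Lepob/+ replicate 2 (11) changed most, and they are the libraries with the most macrophage RNA. For members with a changed sign the values follow. In Lepob/+ against WT the range was Csf1r -0.51 to 0.43, Mrc1 -0.49 to 0.57, Cd163 -0.45 to 0.55, Timd4 -0.44 to 0.19, Folr2 -0.57 to 0.62, C1qa -0.39 to 0.64, C1qb -0.37 to 0.71 and C1qc -0.37 to 0.63. In SOD1G93A against WT the range was Csf1r -0.57 to 0.15, Mrc1 -0.43 to 0.42, Cd163 -0.47 to 0.54, Timd4 -0.25 to 0.35 and Folr2 -0.68 to 0.15. In SOD1G93A-Lepob/+ against Lepob/+ the range was Csf1r -0.13 to 0.59, Mrc1 -0.066 to 0.72, Lyve1 -0.048 to 0.94, Timd4 -0.48 to 0.19, Folr2 -0.29 to 0.68, C1qa -0.40 to 0.52, C1qb -0.46 to 0.50 and C1qc -0.36 to 0.53. In the interaction the range was Adgre1 -0.20 to 0.45, Csf1r -0.036 to 0.90, Mrc1 -0.20 to 0.85, Cd163 -0.041 to 0.97, Lyve1 -0.60 to 0.48, Timd4 -0.57 to 0.098, Folr2 -0.14 to 1.06, C1qa -0.033 to 0.99, C1qb -0.059 to 1.01 and C1qc -0.0040 to 0.99. The causes were not tested.

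Over all genes, edgeR called 0 in each comparison. DESeq2 on all libraries called 1, 3, 562, 70 and 51 genes in the order above, and on the compared libraries 5, 14, 1771 and 35, none of them a member. Other alternatives called 0 to 3 genes. In SOD1G93A-Lepob/+ against SOD1G93A even Marco at -4.85 and T cell markers with a median of -5.90 on the log2 scale were not called by edgeR.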
